A study of Mus musculus with 24 samples.

Results

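The miR-29 family of the mouse consists of mmu-miR-29a-3p, mmu-miR-29b-3p and mmu-miR-29c-3p, and these 3 of the 1009 miRNAs listed in the data are described here. They were chosen by name, and the prefix mmu is left out below. The data are small RNA libraries of whole mammary gland homogenates from 24 females of the inbred C57BL/6 strain. Each library came from a single animal, and 6 animals represented each of 4 stages, which were W10 (adults aged 10 weeks), P18 (gestation, day 18), Lac7 (lactation, day 7) and Inv3 (involution, day 3), and no transgene, deletion or drug was part of the design. The labels of the libraries and the paper give these days and the abdominal and inguinal glands, whereas the series' design text gives day 3 for lactation, day 7 for involution and the inguinal glands alone.

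A miRNA is a short RNA that is cut from a hairpin and guides a silencing complex to messenger RNAs, mainly through its seed, bases 2 to 8. The miR-29 family is known for restraining messenger RNAs of the extracellular matrix, among them those of fibrillar and basement membrane collagens and of elastin, and it is low in many fibrotic tissues. The mammary gland rebuilds its matrix and its fat and epithelial compartments through pregnancy, lactation and the regression that follows weaning, so the level of the family at each stage was the question examined.

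The 3 mature sequences are shown because the members share their seed and differ in few other bases. Capitals mark the seed, and the sequences are those of RefSeq with the build GRCm38.p6.
miR-29a-3p: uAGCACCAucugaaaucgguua
miR-29b-3p: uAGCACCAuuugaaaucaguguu
miR-29c-3p: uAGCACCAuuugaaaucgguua
Of the 854 listed miRNAs with a mature sequence in this table, these 3 carried the seed AGCACCA. With positions counted from 1 at the 5′ end and the first-named member's base first, miR-29a-3p and miR-29c-3p differed by 1 substitution, C10U. miR-29a-3p and miR-29b-3p differed by the 4 substitutions C10U, G18A, U21G and A22U over 22 bases, and miR-29b-3p is 1 base longer, at 23 against 22 bases. Reads of miR-29a-3p and miR-29c-3p are therefore told apart by a single base, and how the authors' counting treated a sequencing error at that base is not given in the sources used here.

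The members come from 4 hairpins in 2 pairs. Their sequences are shown because they tie each member to a place in the genome, with both mature arms in capitals.
Mir29a: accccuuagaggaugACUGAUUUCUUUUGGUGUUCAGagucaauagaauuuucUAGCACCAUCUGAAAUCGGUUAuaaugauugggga
Mir29b-1: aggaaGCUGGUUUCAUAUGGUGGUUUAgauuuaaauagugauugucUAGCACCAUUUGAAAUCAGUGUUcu
Mir29b-2: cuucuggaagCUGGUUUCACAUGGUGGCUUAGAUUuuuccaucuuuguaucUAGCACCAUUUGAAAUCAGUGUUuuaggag
Mir29c: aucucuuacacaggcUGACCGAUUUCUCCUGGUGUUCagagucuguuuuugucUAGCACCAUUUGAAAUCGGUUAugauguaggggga
Mir29a (chr6:31062660-31062747, minus strand) and Mir29b-1 (chr6:31063023-31063093, minus strand) lie 275 bases apart. Neither lies within an exon or intron of another gene in the GENCODE annotation, and the nearest gene is Gm27019, a long intergenic non-coding RNA on the same strand whose exon overlaps the end of Mir29b-1 by a few bases. Mir29b-2 (chr1:195037040-195037120, plus strand) and Mir29c (chr1:195037547-195037634, plus strand) lie 426 bases apart, within an exon of the non-coding gene A330023F24Rik and antisense to an exon of Cd46. Mir29b-1 and Mir29b-2 give the same miR-29b-3p, so that its reads cannot be assigned to a locus. Their 5p arms differ and are described below.

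As background on the seed, its complement TGGTGCT was searched on the transcript strand in the longest annotated 3′ untranslated region of each coding gene (GENCODE, GRCm38). The letters were present in 2737 of 20979 genes, or 13%. Of 16 matrix genes listed as textbook targets, 14 held them, and 6 of these held them at least 2 times, while Col1a2 and Sparc held none. These genes were listed because they are known targets, so the count is a description only, and their messenger RNAs were not measured. Sites of a fibrillar collagen pair, a basement membrane collagen and elastin are shown, with the letters that pair with the seed in capitals.
Col1a1: gtgggaaggaatttcTGGTGCTa
Col3a1: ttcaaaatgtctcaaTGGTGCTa
Col4a1: gccaccgtcacaacaTGGTGCTa
Eln: cgacctcatcaacgtTGGTGCTa
These sites lie at chr11:94952523-94952545 (plus strand), chr1:45348967-45348989 (plus strand), chr8:11199761-11199783 (minus strand) and chr5:134703736-134703758 (minus strand). Among genes whose untranslated region was within 20% of the same length, 13.3%, 9.3%, 12.6% and 11.6% held the letters.

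Levels are in reads per 1e6 reads on listed miRNAs (RPM), as deposited by the authors. The libraries held 660346 to 1165321 reads on miRNAs, and those of Lac7 were the shallowest, at 660346 to 751890. For a miRNA without a read, the limit of 3 reads equals 2.57 to 4.54 RPM by library, and this covers counting error only. Because each library sums to the same total, a value also depends on the other miRNAs, so every comparison was repeated on values divided by DESeq2 size factors, which are set by the typical miRNA. This scaling moved the median log2 fold change over the 544 tested miRNAs by up to 0.352 (Lac7 against W10, from -0.66 to -0.31). In bulk tissue, fewer cells that carry a miRNA and less of it per cell cannot be told apart. Comparisons used limma on log2(RPM + 1) with Benjamini-Hochberg adjustment over all 544 miRNAs, and "rose" and "fell" are used for an adjusted p under 0.05.

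The family was abundant and its level followed the stages closely (plot of levels by stage). Summed over the 3 members, its mean share of the reads was 5.14% in W10 mice, 1.31% in P18 mice, 2.32% in Lac7 mice and 3.97% in Inv3 mice, each over 6 mice. All 3 members fell from W10 to P18, and all 3 rose from P18 to Lac7. The fall from W10 to P18 was larger for miR-29a-3p than for miR-29b-3p or miR-29c-3p, by the ratios given below. From Lac7 to Inv3 the calls parted: miR-29a-3p rose to 1.79 times its mean level at Lac7, and for miR-29b-3p and miR-29c-3p no change was called.

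**Figure D1:**
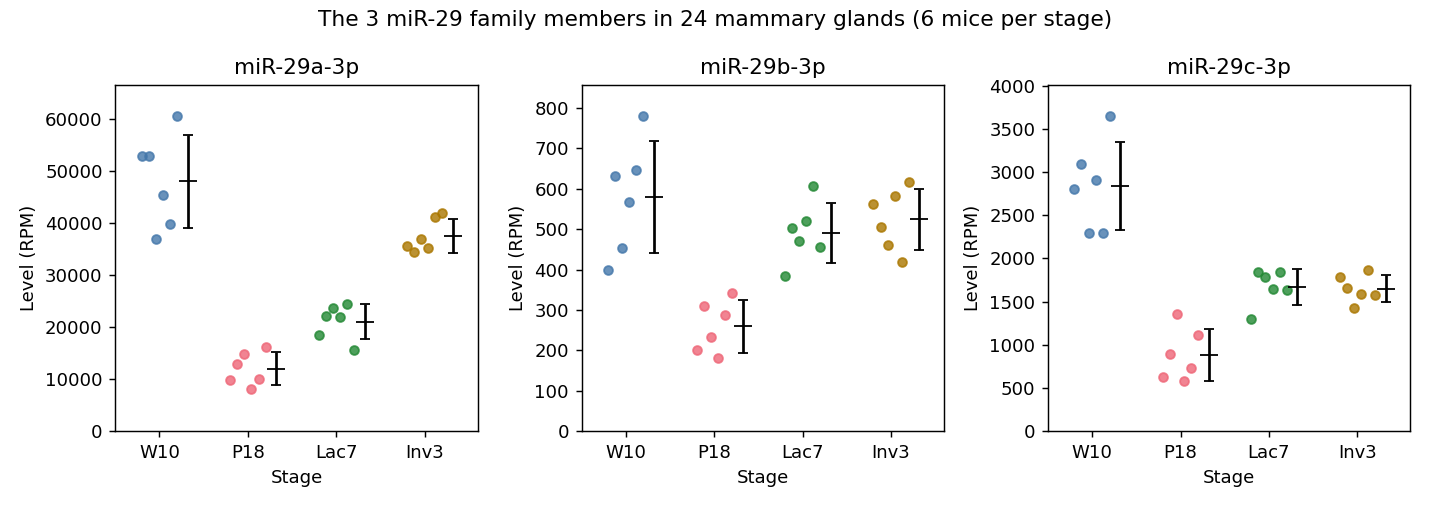
Levels of miR-29a-3p, miR-29b-3p and miR-29c-3p in RPM (vertical axes, from 0) at the 4 stages, with 1 point per mouse and the mean and SD of 6 mice beside them. P18 is the lowest stage in each panel, and at Inv3 the miR-29a-3p points lie between 34513 and 41882 RPM while those of miR-29c-3p lie between 1429 and 1870 RPM, close to Lac7.

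miR-29a-3p, the main member, ranked 7th among all miRNAs by mean RPM in W10 mice, 18th in P18 mice, 11th in Lac7 mice and 6th in Inv3 mice. At W10 it ranged from 36837 to 60474 RPM with a median of 49071 (mean 48025 ± 8954, SD, n = 6). At P18 it ranged from 8079 to 16201 RPM with a median of 11498 (11975 ± 3189, n = 6). Every P18 mouse was below every W10 mouse. At Lac7 the range was 15601 to 24363 RPM with a median of 22015 (21014 ± 3340, n = 6), and 5 of the 6 mice were above all P18 mice. At Inv3 the range was 34513 to 41882 RPM with a median of 36255 (37543 ± 3220, n = 6), so that all Inv3 mice were above all Lac7 mice while 3 of them were below all W10 mice.

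miR-29c-3p, which differs from miR-29a-3p by 1 base and comes from the other pair of hairpins, was lower throughout. It ranged from 2291 to 3643 RPM at W10 with a median of 2857 (2838 ± 512, n = 6). At P18 it ranged from 585 to 1351 RPM with a median of 811 (883 ± 302, n = 6). At Lac7 the range was 1296 to 1848 RPM with a median of 1712 (1674 ± 207, n = 6), and at Inv3 it was 1429 to 1870 RPM with a median of 1623 (1651 ± 159, n = 6). The Lac7 and Inv3 mice overlapped almost fully, and all 12 were below the W10 mice.

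miR-29b-3p, encoded in both pairs, was the least abundant member. It ranged from 398 to 779 RPM at W10 with a median of 599 (579 ± 138, n = 6) and from 181 to 343 RPM at P18 with a median of 260.3 (259 ± 64.5, n = 6). At Lac7 it ranged from 383 to 606 RPM with a median of 486 (489.5 ± 74.1, n = 6), and at Inv3 from 418 to 616 RPM with a median of 534 (524 ± 76.2, n = 6). The P18 mice were below those of every other stage, and the mice of the other stages overlapped each other.

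From W10 to P18, miR-29a-3p fell by 2.03 on the log2 scale (SE 0.15, limma adjusted p = 5.7e-11), a 4.01-fold lower mean. miR-29c-3p fell by 1.73 (SE 0.17, limma adjusted p = 4.5e-09), and miR-29b-3p fell by 1.16 (SE 0.17, limma adjusted p = 2.7e-06). The groups did not overlap for any of the 3. Here and throughout, the share of all tested miRNAs whose groups did not overlap was not counted, so separation is a description only. Over all tested miRNAs 29.4% fell and 12.1% rose, with a median of -0.32, and the fall of miR-29a-3p was the 16th largest of 544. With size factors, where 93 miRNAs were higher and 121 lower in place of 66 and 160, the 3 members also fell, by 1.77, 1.48 and 0.91.

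By median log2 fold change (-3.66), the marker list that differed most between these stages was that of skeletal muscle, of which 3 of 4 miRNAs fell, from a summed level of 2378 to 24031 RPM at W10 to 194 to 2420 RPM at P18. Without the 2 W10 mice that had most of these miRNAs, the log2 fold changes of miR-29a-3p, miR-29b-3p and miR-29c-3p from W10 to P18 were -2.10, -1.11 and -1.79. The W10 mice kept still held 2378 to 11721 RPM of the muscle miRNAs, so the difference from P18 was not removed. The part of muscle in the fall was not tested.

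From P18 to Lac7, the 3 members rose by like amounts. The log2 fold change was 0.84 for miR-29a-3p (SE 0.15, limma adjusted p = 4.8e-05), 0.94 for miR-29b-3p (SE 0.17, limma adjusted p = 4.8e-05) and 0.98 for miR-29c-3p (SE 0.17, limma adjusted p = 1.9e-05). The groups did not overlap for miR-29b-3p, and for the other two 5 of 6 Lac7 mice were above all P18 mice. At this step 13.8% of the tested miRNAs rose and 31.4% fell, with a median of -0.34, so the members moved against the more common direction. With size factors, 105 miRNAs were higher and 131 lower in place of 75 and 171, and the members rose by 1.14, 1.24 and 1.28.

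From Lac7 to Inv3, miR-29a-3p rose by 0.85 (SE 0.15, limma adjusted p = 4.6e-05), with no overlap between groups. miR-29b-3p differed by 0.099 (95% interval -0.25 to 0.45, limma adjusted p = 0.65) and miR-29c-3p by -0.015 (95% interval -0.35 to 0.32, limma adjusted p = 0.95). Of all tested miRNAs 27.9% rose and 18.9% fell, with a median of 0.28. With size factors, 126 miRNAs were higher and 121 lower in place of 152 and 103. On that scale miR-29a-3p rose by 0.67, while miR-29b-3p and miR-29c-3p differed by -0.077 and -0.19, neither of which passed the test.

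**Figure D2:**
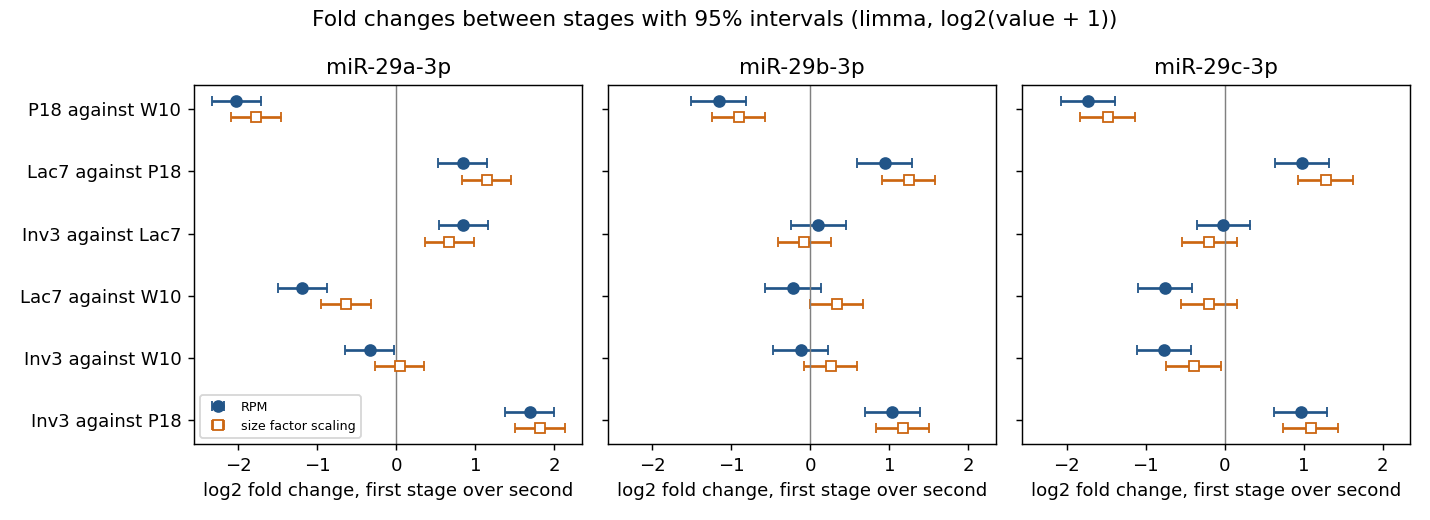
The log2 fold change of each member in the 6 comparisons of stages (horizontal axis, first stage over second), with 95% intervals from limma, on RPM (filled circles) and on values scaled by size factors (open squares). The comparisons of Lac7 and Inv3 with W10 move most with the scaling in each panel, for example from -0.75 to -0.20 for miR-29c-3p at Lac7.

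Against W10, the values at the later stages moved with the scaling for all 3 members. miR-29a-3p remained lower at Lac7, with a log2 fold change of -1.19 on RPM (SE 0.15, limma adjusted p = 1.2e-07) and -0.63 with size factors. miR-29c-3p was lower at Lac7 by RPM (-0.75, SE 0.17, limma adjusted p = 2.7e-04) and at Inv3 (-0.77, SE 0.17, limma adjusted p = 5.4e-04). Both calls were lost with size factors, at -0.20 (adjusted p = 0.32) and -0.39 (adjusted p = 0.087). miR-29b-3p did not pass in either comparison, with -0.22 at Lac7 and -0.12 at Inv3 on RPM and the opposite sign, 0.33 and 0.26, with size factors. At Lac7 48.5% of the tested miRNAs were lower than at W10 and 18.2% higher, or 206 and 132 miRNAs with size factors in place of 264 and 99.

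At Inv3, miR-29a-3p had a lower mean than at W10 on RPM, a difference that did not pass the test. The log2 fold change was -0.34 (95% interval -0.65 to -0.026, limma adjusted p = 0.079) on RPM and 0.041 with size factors (95% interval -0.27 to 0.36). Without W10 mouse 3, the mouse with the lowest miR-29a-3p of its stage, the change on RPM was -0.41 and passed (limma adjusted p = 0.036). Between Inv3 and W10, 31.2% of the tested miRNAs were lower and 7.9% higher, or 91 and 71 miRNAs with size factors in place of 170 and 43.

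Between P18 and Inv3, the members differed by 1.69 (miR-29a-3p, SE 0.15, limma adjusted p = 7.7e-09), 1.04 (miR-29b-3p, SE 0.17, limma adjusted p = 3.6e-05) and 0.96 (miR-29c-3p, SE 0.17, limma adjusted p = 6.6e-05), all higher at Inv3 with no overlap between groups. Here 10.8% of the tested miRNAs were higher and 17.6% lower, and miR-29a-3p had the 4th largest increase of 544. With size factors, 67 miRNAs were higher and 75 lower in place of 59 and 96, and the members were higher at Inv3 by 1.82, 1.17 and 1.09. The comparisons share groups of mice with one another, so they are not independent.

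The order of the levels was therefore W10, Inv3, Lac7 and P18 for miR-29a-3p by mean RPM, with W10 and Inv3 not separated by the test. For miR-29b-3p it was W10, Inv3, Lac7 and P18, with only P18 separated from its neighbour. For miR-29c-3p it was W10, Lac7, Inv3 and P18, with Lac7 and Inv3 not separated, and with the step from W10 to Lac7 separated on RPM and not with size factors.

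Ratios between members within a library do not depend on the scaling, apart from the added 1 RPM, and so show directly where the members parted. They were compared as log2 ratios by two-sided exact permutation over all splits of the mice, with Benjamini-Hochberg adjustment over 18 tests, where the smallest possible p is 0.0022. miR-29c-3p made up 5.93% ± 0.39 of miR-29a-3p in W10 mice, 7.30% ± 0.95 in P18 mice, 8.07% ± 1.25 in Lac7 mice and 4.42% ± 0.51 in Inv3 mice (SD, n = 6 each). From Lac7 to Inv3 this ratio dropped 1.82-fold (log2 difference -0.86, SE 0.11, exact adjusted p = 0.0065), and no Inv3 mouse reached the lowest Lac7 mouse. It was also 1.35-fold lower at Inv3 than at W10 (log2 difference -0.43, SE 0.08, exact adjusted p = 0.0065), again with no overlap. At P18 the ratio was 1.23-fold higher than at W10 (log2 difference 0.29, SE 0.08, exact adjusted p = 0.0087), with overlapping groups. At Lac7 it was 1.35-fold higher than at W10 (log2 difference 0.44, SE 0.09, exact adjusted p = 0.0065), without overlap.

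The ratio of miR-29b-3p to miR-29a-3p also dropped from Lac7 to Inv3, but its mean at Inv3 was not below that at W10. Its mean was 1.22% ± 0.28 in W10 mice, 2.21% ± 0.43 in P18 mice, 2.35% ± 0.34 in Lac7 mice and 1.41% ± 0.24 in Inv3 mice. It was 1.82-fold higher at P18 than at W10 (log2 difference 0.87, SE 0.19, exact adjusted p = 0.0087) and 1.68-fold lower at Inv3 than at Lac7 (log2 difference -0.75, SE 0.13, exact adjusted p = 0.0065). At Inv3 its log2 difference from W10 was 0.22 (SE 0.18, exact adjusted p = 0.37), which did not pass. Between P18 and Lac7 neither ratio to miR-29a-3p passed the test, with log2 differences of 0.10 (SE 0.14) for miR-29b-3p and 0.14 (SE 0.11) for miR-29c-3p.

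Relative to miR-29c-3p, miR-29b-3p stood at 20.6% ± 4.5 in W10 mice, 30.9% ± 7.5 in P18 mice, 29.3% ± 2.5 in Lac7 mice and 32.05% ± 5.82 in Inv3 mice. It was higher at Lac7 (log2 difference 0.53, SE 0.14, exact adjusted p = 0.014) and at Inv3 (log2 difference 0.65, SE 0.17, exact adjusted p = 0.0087) than at W10, and at P18 the difference from W10 missed the threshold (0.57, SE 0.21, exact adjusted p = 0.058). The miR-29a-3p share of all family reads lay between 88.2% and 95.1% in the 24 mice, so the summed family mainly followed this member.

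**Figure D3:**
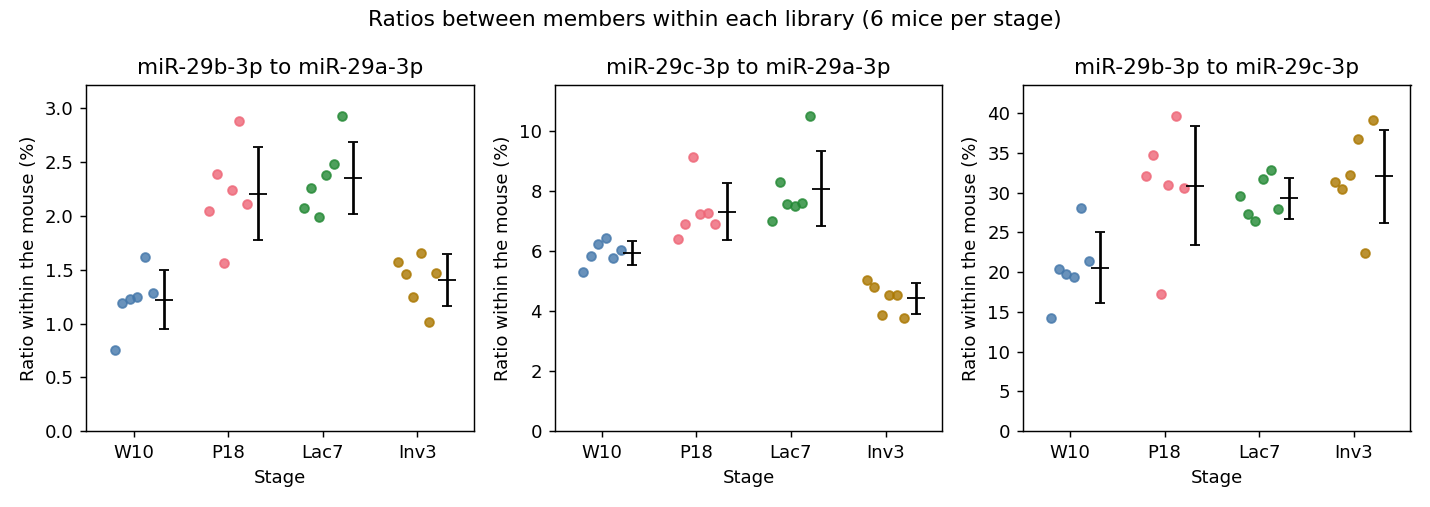
Ratio of 1 member to another within each library in percent (vertical axes, from 0), with 1 point per mouse and the mean and SD of 6 mice beside them. Both ratios to miR-29a-3p are high at P18 and Lac7 and drop at Inv3, and the ratio of miR-29b-3p to miR-29c-3p is lowest at W10.

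The 5p arms, the strands of the hairpins that are less often retained, were far less abundant. miR-29a-5p had a mean of 78.3 ± 24.4 RPM in W10 mice, 29.0 ± 8.3 in P18 mice, 26.1 ± 2.6 in Lac7 mice and 50.8 ± 23.2 in Inv3 mice, or 1.26 to 2.51 reads per 1000 reads of miR-29a-3p by stage mean. It fell from W10 to P18 (log2 fold change -1.39, SE 0.26, limma adjusted p = 6.3e-05) and rose from Lac7 to Inv3 (0.82, SE 0.26, limma adjusted p = 0.0099), like miR-29a-3p. From P18 to Lac7, where miR-29a-3p rose, its change was -0.11 (SE 0.26, limma adjusted p = 0.75) on RPM and 0.18 with size factors. At Lac7 it was lower than at W10 (-1.51, limma adjusted p = 1e-05), and that call held with size factors (-0.96). Its calls at Inv3 against W10 (-0.68, limma adjusted p = 0.035) and against P18 (0.71, limma adjusted p = 0.039) were each lost without 1 of several mice (adjusted p up to 0.12 and 0.13), without the filter on low values (0.057 and 0.062) and on the 12 libraries of the comparison alone (0.075 and 0.10). The difference from W10 was also lost with size factors (-0.31, adjusted p = 0.36), edgeR (-0.20, adjusted p = 0.55) and DESeq2 (-0.23, adjusted p = 0.52), while that from P18 held with size factors (0.83, adjusted p = 0.0096).

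miR-29c-5p had a mean of 68.9 ± 13.2 RPM in W10 mice, 37.8 ± 10.7 in P18 mice, 40.7 ± 7.9 in Lac7 mice and 49.3 ± 13.1 in Inv3 mice. It fell from W10 to P18 (log2 fold change -0.87, SE 0.21, limma adjusted p = 0.0014). Its later steps, 0.13 and 0.25, did not pass, and its lower level at Lac7 than at W10 (-0.75, limma adjusted p = 0.0033) was lost with size factors (-0.20, adjusted p = 0.39). It made up 24.5 to 46.7 reads per 1000 reads of miR-29c-3p by stage mean, a larger 5p share than that of Mir29a.

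The 5p arms of the miR-29b hairpins differ by locus, unlike miR-29b-3p, and were not compared with each other by a test. For Mir29a and Mir29c the stage means of the 5p reads per 1000 3p reads differed, but the mice of the stages overlapped and no test was run. Whether a 5p level follows the 3p output of its locus is therefore not known here. miR-29b-1-5p had 1 to 13 reads per W10 library, 3 to 12 per P18 library, 12 to 26 per Lac7 library and 4 to 10 per Inv3 library. In RPM its means were 5.09 ± 3.45, 6.53 ± 3.16, 23.9 ± 7.2 and 6.86 ± 1.86. All Lac7 mice, at 16.1 to 36.5 RPM, were above every mouse of the other stages, although the Lac7 libraries were the shallowest. It rose from P18 to Lac7 (log2 fold change 1.78, SE 0.34, limma adjusted p = 9.8e-05) and fell from Lac7 to Inv3 (-1.66, SE 0.34, limma adjusted p = 2.0e-04), and both calls held with size factors (2.06 and -1.84).

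miR-29b-2-5p was at 0 to 10 reads in every library, with means of 6.30 ± 3.26, 2.22 ± 1.32, 4.24 ± 3.06 and 6.33 ± 2.20 RPM at W10, P18, Lac7 and Inv3. These levels are within a few reads of the 3 reads that a count of 0 allows. Its fall from W10 to P18 (log2 fold change -1.21, SE 0.41, limma adjusted p = 0.017) was lost with size factors (adjusted p = 0.054) and without P18 mouse 1, in which it had no read (adjusted p = 0.062). Its higher level at Inv3 than at P18 (1.27, SE 0.41, limma adjusted p = 0.019) was also lost without that mouse (0.96, adjusted p = 0.064). Of the summed reads of these 2 arms, miR-29b-1-5p made up 46.4% of 69 reads in W10 mice (Wilson 95% interval 35.1 to 58.0), 74.5% of 51 in P18 mice (61.1 to 84.5), 84.9% of 119 in Lac7 mice (77.4 to 90.2) and 51.9% of 81 in Inv3 mice (41.1 to 62.4). The intervals pool the mice and cover counting error only, and in single mice the share ran from 9.1% to 81.3% at W10 and from 74.1% to 93.3% at Lac7.

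**Figure D4:**
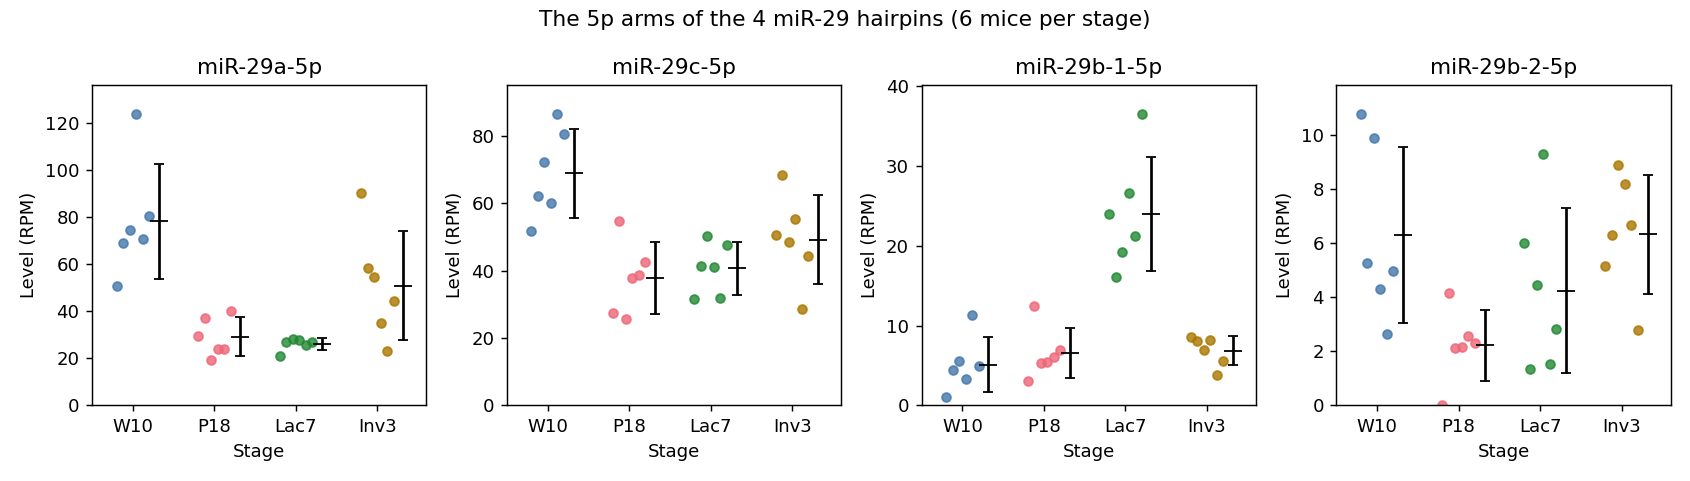
Levels of the 5p arms of the 4 miR-29 hairpins in RPM (vertical axes, from 0, on a different scale in each panel), with 1 point per mouse and the mean and SD of 6 mice beside them. miR-29b-1-5p is highest at Lac7, with all 6 mice between 16.1 and 36.5 RPM, where miR-29a-5p, from the neighbouring hairpin, is at 21.0 to 28.2 RPM.

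Other miRNAs with a known part in collagen or fibrosis were set beside the family. Of 18 described as restraining collagen or fibrosis, 4 rose and 8 fell from W10 to P18 (median -0.36), 6 rose and 4 fell from P18 to Lac7 (median 0.41), and 3 rose and 11 fell from Lac7 to Inv3 (median -0.56). Over all tested miRNAs 12.1% rose and 29.4% fell at the first step, 13.8% and 31.4% at the second, and 27.9% and 18.9% at the third, with medians of -0.32, -0.34 and 0.28. With size factors the counts of the list were 7 and 8, 12 and 2, and 1 and 12, with medians of -0.11, 0.72 and -0.74 against -0.12, -0.14 and 0.18 over all tested. miR-200a-3p and miR-200b-3p, which hold back epithelial to mesenchymal transition, had the highest RPM of those named and peaked at Lac7, with 73975 and 31252 RPM. miR-30a-5p rose from P18 to Lac7 with the family (4189 to 8819 RPM, log2 fold change 1.07, limma adjusted p = 2.9e-07). The list holds 3 miRNAs that are also on the epithelium list, 2 on the skeletal muscle list and 1 on the adipose list.

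Of 8 miRNAs described as promoting fibrosis, 7 were tested, and miR-433-3p was not. From W10 to P18 0 rose and 5 fell, 1 rose and 4 fell from P18 to Lac7, and 6 rose and 1 fell from Lac7 to Inv3, with medians of -0.77, -1.05 and 1.30. The more common direction over all tested miRNAs was the same at each step (29.4% and 31.4% fell, then 27.9% rose, with medians of -0.32, -0.34 and 0.28). With size factors 1 rose and 5 fell at the first step and the counts at the other steps were the same, with medians of -0.51, -0.75 and 1.12. miR-21a-5p, which is raised in many fibrotic tissues, fell from 32862 to 13197 RPM from W10 to P18 (log2 fold change -1.32, limma adjusted p = 2.1e-08) and rose from 10648 RPM at Lac7 to 31169 RPM at Inv3 (1.52, limma adjusted p = 2.2e-09). Of this list, 3 miRNAs are also on the stroma list and 1 is on the lymphocyte list.

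Markers of the cell types of the gland changed with the stages, and their part in the levels of the family was not tested. The counts that follow stand against 12.1%, 13.8% and 27.9% of all tested miRNAs that rose and 29.4%, 31.4% and 18.9% that fell at the 3 consecutive steps. Epithelial miRNAs (11, among them the miR-200 family) summed to 21719 to 26495 RPM in W10 mice, 58784 to 73321 in P18 mice, 128256 to 148244 in Lac7 mice and 29598 to 86794 in Inv3 mice, and 8, 7 and 1 of 11 rose and 0, 2 and 10 fell at the consecutive steps (9, 8 and 1 and 0, 1 and 10 with size factors). Stromal miRNAs (8, among them miR-143-3p and miR-199a-3p) summed to 170846 to 212732, 192065 to 215942, 147826 to 172294 and 258111 to 350911 RPM, with 1, 0 and 7 of 8 rising and 4, 5 and 1 falling (3, 1 and 7 and 4, 4 and 1 with size factors). Much of this sum was miR-143-3p, with means of 92349 RPM at W10 and 246220 RPM at Inv3, while miR-199a-3p went from 82291 to 48927 RPM. At Inv3 2 of the 8 were higher and 4 lower than at W10, against 7.9% and 31.2% of all tested (4 and 3 with size factors). The mean log2 level of the 8 was 11.51 at W10 and 11.33 at Inv3. Myeloid miRNAs (3) summed to 24721 to 47268, 6903 to 23187, 3939 to 11992 and 12884 to 23540 RPM, and lymphocyte miRNAs (3) to 3592 to 5007, 1637 to 2530, 424 to 838 and 1575 to 3743 RPM. For both of these lists 3 of 3 fell at the first step, 3 of 3 fell at the second and 3 of 3 rose at the third, and with size factors 2 of 3 myeloid miRNAs fell at the second step while the other counts were the same.

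Adipose miRNAs (4) summed to 4014 to 9186 RPM in W10 mice, 2155 to 2837 in P18 mice, 1410 to 1795 in Lac7 mice and 1777 to 2780 in Inv3 mice, with 3 falling at the first step, 2 at the second and 2 rising and 1 falling at the third. Among these, miR-193b-3p fell at the first step from a mean of 4.7 to 0.91 RPM and at the third from 2.16 to 0.46 RPM. Such levels are near or below the 2.57 to 4.54 RPM of 3 reads. Skeletal muscle miRNAs (4) summed to 104 to 5001 RPM at Lac7 and 215 to 947 RPM at Inv3, with none passing at the second step and 2 falling at the third. Endothelial miRNAs (2) stayed between 12532 and 19549 RPM, with 1 falling, 2 rising and 1 falling at the 3 steps, and red blood cell miRNAs (3) between 382 and 1936 RPM, with 1 falling, 1 rising and 1 falling. No marker of these lists was at 0 in all mice of a stage. With size factors, the 2 adipose calls at the second step and the 2 rises at the third were lost, and of the red blood cell miRNAs 1 rose and 1 fell, 2 rose, and 1 fell, while the counts of the muscle and endothelial lists were the same.

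Differences between mice of the same stage were examined after the stage means were subtracted, over 24 mice and 27 relations with 100000 permutations within stages. miR-29a-3p and miR-29c-3p, from different chromosomes, varied together (Pearson's r = 0.83, permutation adjusted p = 0.0028, Spearman's rho = 0.82, permutation adjusted p = 0.0022). With size factors r was 0.84. Their reads are told apart by a single base, and whether misassigned reads add to this relation was not tested. Without the 2 mice farthest from the median of miR-29a-3p r was 0.77, and by stage r was 0.94 among W10 mice, 0.94 among P18 mice, 0.58 among Lac7 mice and 0.17 among Inv3 mice. miR-29b-3p was related to miR-29a-3p with r = 0.51 (permutation adjusted p = 0.11, rho = 0.49, adjusted p = 0.10) and to miR-29c-3p with r = 0.48 (permutation adjusted p = 0.16, rho = 0.44, adjusted p = 0.17), which did not pass.

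Of the 24 relations with cell type lists, that of miR-29b-3p with the myeloid list passed (r = 0.73, permutation adjusted p = 8.1e-04, rho = 0.71, permutation adjusted p = 0.0042). It was 0.63 without the 2 mice farthest from the median and 0.92, 0.87, 0.81 and 0.12 at W10, P18, Lac7 and Inv3. The relation of miR-29c-3p with the same list passed by rank and not by Pearson's r (r = 0.55, permutation adjusted p = 0.064, rho = 0.62, permutation adjusted p = 0.026). For miR-29a-3p and the myeloid list r was 0.52 (permutation adjusted p = 0.092, rho = 0.53, permutation adjusted p = 0.08). Relations of like size with other lists did not pass either. With the red blood cell list r was 0.54 for miR-29a-3p (permutation adjusted p = 0.094) and 0.59 for miR-29b-3p (permutation adjusted p = 0.08). With the endothelium list r was 0.52 for miR-29b-3p (permutation adjusted p = 0.092). For the epithelium list no relation passed (r between -0.27 and 0.04, permutation adjusted p between 0.11 and 0.97).

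**Figure D5:**
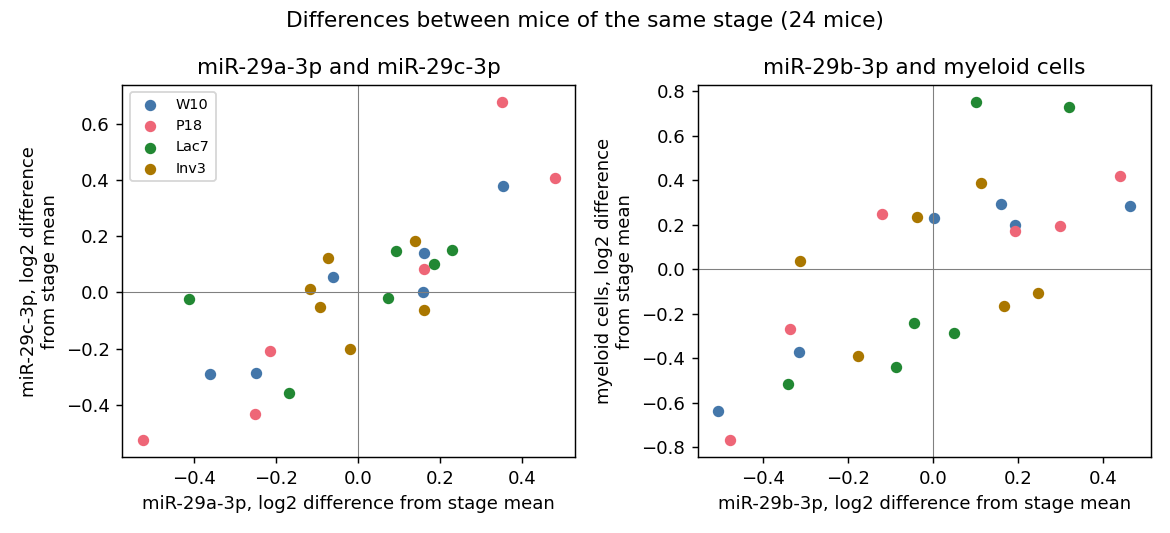
Log2 differences of single mice from the mean of their stage, for miR-29c-3p against miR-29a-3p (left) and for the mean level of the 3 myeloid miRNAs against miR-29b-3p (right), with 1 point per mouse coloured by stage. The points rise together in both panels (r = 0.83 and 0.73 over 24 mice), and the Inv3 points show the weakest relation in each (0.17 and 0.12).

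The miRNAs most like each member were taken as those with the highest Pearson's r of log2(RPM + 1) over the 24 libraries, among 185 other miRNAs whose stage mean reached 100 RPM at least once. These values are descriptions, since the libraries share their stages. For miR-29a-3p they were miR-339-5p (r = 0.84), miR-140-3p (0.83) and miR-22-5p (0.80). miR-339-5p had means of 486, 198, 175 and 478 RPM (W10, P18, Lac7, Inv3), without the partial return at Lac7 seen for miR-29a-3p. For miR-29b-3p they were miR-140-5p (0.85), miR-126b-3p (0.83) and miR-126a-5p (0.81), and for miR-29c-3p miR-30e-5p (0.91), miR-378c (0.80) and miR-140-5p (0.79). miR-30e-5p had means of 4787, 2585, 4046 and 3270 RPM, with its low point at P18 and a higher level at Lac7 than at Inv3. Between the members themselves r was 0.90 for miR-29a-3p and miR-29c-3p, 0.83 for miR-29a-3p and miR-29b-3p and 0.83 for miR-29b-3p and miR-29c-3p.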

How the data were processed

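Small RNA of 24 mouse mammary glands was extracted with a mirVana kit, made into libraries with a QIAseq miRNA kit and sequenced on an Illumina instrument (NextSeq 500 in the paper's methods, NovaSeq6000 in its legends). The authors assigned reads with QuickMIRSeq and miRBase 22 and deposited RPM values, scaled to 1e6 reads on listed miRNAs per library. The submitters' processing notes name GRCm38, Trimmomatic 0.36, cutadapt, FastQC and MultiQC. Whether molecular identifiers were used is not given in the sources used here. Values were whole multiples of 1 read's worth for 100% of the values within 0.01 RPM, which gave 660346 to 1165321 reads per library. In W10 mouse 7 a read is worth 0.9945 RPM, so its steps are the hardest to tell from whole RPM values.

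All 544 miRNAs whose stage mean reached 1 RPM at least once were fitted with limma 3.58.1 (lmFit, eBayes with trend, R 4.3.3) on log2(RPM + 1) over 24 libraries. The understated change of low values on this scale concerns the 5p arms. edgeR 4.0.16 and DESeq2 1.42.0 were run on the recovered reads as alternatives. edgeR's quasi-likelihood test called 139 to 317 miRNAs per comparison, against 155 to 363 with limma. Ratios and relations used python 3.11.15 with scipy 1.17.1. On simulated data limma on RPM gave no changed miRNA the wrong direction, but called more unchanged miRNAs than edgeR or DESeq2 did. The simulation used the same dispersion for every miRNA and changes of a fixed size at P18 only. It therefore does not give the rate of such calls in the real libraries. Named were, beside the 3 members and the 4 other arms, up to 4 passed miRNAs of each list with the largest change, and 3 miRNAs per member by likeness. The members, lists, target genes and tests were chosen with earlier results of these data known. Mice are numbered alike across stages, but libraries with the same number did not deviate together (mean r -0.045 over 33 pairs, against 0.004 over 183 others), and chi-square per degree of freedom was at least 9.6 in all 60 pairs of a stage, so no library was a copy of another. Each library is 1 mouse, and n counts mice.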

Additional observations from a re-analysis of the deposited data

Results flagged for a closer look

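In 3 of the 40 groups of 6 mice examined (the members, the 5p arms and the ratios at each stage), 1 mouse lay apart from the others by Dixon's test, which flags about 1 group in 20 by chance. miR-29c-3p was 9.12% of miR-29a-3p in P18 mouse 3, against 7.28% in the next mouse, and without it the rise of this ratio from P18 to Lac7 passed the test (log2 difference 0.21, exact adjusted p = 0.033). The same ratio was 10.5% in Lac7 mouse 6, against 8.30% in the next mouse. miR-29a-5p was at 21.0 RPM in Lac7 mouse 1, a library with 14 reads of it, against 25.7 RPM in the next mouse.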

How the results depend on the processing

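For the 3 members, a pseudocount of 0.1 or 10, leaving out the filter or raising it to 100 RPM, and fitting each comparison on its own 12 libraries kept the direction and the call of all 18 comparisons. Blocking on the mouse number did so too, although the numbers do not pair the mice, with for example -1.97 for miR-29a-3p and -1.11 for miR-29b-3p from W10 to P18. W10 mouse 7 shares its number with no other mouse, so the blocked fit makes no use of it. Size factors, edgeR and DESeq2, which all rescale the libraries, changed the comparisons against W10. miR-29c-3p no longer passed at Lac7 (-0.20, -0.30 and -0.20) or at Inv3 (-0.39, -0.36 and -0.39). Members that had not passed changed sign without passing: miR-29a-3p at Inv3 (0.041, 0.057 and 0.029), miR-29b-3p at Lac7 (0.33, 0.23 and 0.32) and at Inv3 (0.26, 0.27 and 0.23), and miR-29b-3p at Inv3 against Lac7 with size factors and DESeq2 (-0.077 and -0.086). When each mouse was left out in turn, 211 of 216 results for the members were the same. miR-29a-3p at Inv3 against W10 ran from -0.41 to -0.27 and passed without W10 mouse 3, and miR-29c-3p at Inv3 against Lac7 ran from -0.087 to 0.026. Leaving out the 2 W10 mice with most skeletal muscle miRNA, an alternative chosen after the data were seen, changed no call of a member in 9 comparisons. The W10 mice kept still held up to 11721 RPM of these miRNAs, so this fit did not remove the difference in muscle. Of the ratios, that of miR-29b-3p to miR-29c-3p at P18 against W10 passed with a pseudocount of 10 (0.59) and ran from 0.47 to 0.73 with each mouse left out, passing without W10 mouse 5 or P18 mouse 3. That of miR-29c-3p to miR-29a-3p at Lac7 against P18 ran from 0.062 to 0.21. The ratio of miR-29b-3p to miR-29c-3p ran from -0.20 to 0.042 at Lac7 against P18 and from -0.085 to 0.17 at Inv3 against P18. Among the 5p arms, differences that had not passed changed sign for miR-29a-5p at Lac7 against P18 (0.18, 0.018 and 0.16 with size factors, edgeR and DESeq2), for miR-29b-2-5p at Lac7 against W10 with DESeq2 (0.011) and at Inv3 against W10 without the muscle-rich mice (-0.25) and with each mouse left out (-0.12 to 0.24), and for miR-29b-1-5p at Inv3 against P18 (-0.042 to 0.30). The size factors were 1.18 to 1.31 for W10 libraries and 0.81 to 0.95 for Lac7 libraries, so dividing by them raised Lac7 against W10. In that comparison miR-29a-3p moved from -1.19 to -0.63, miR-29b-3p from -0.22 to 0.33 and miR-29c-3p from -0.75 to -0.20. Why the size factors differed between stages was not tested. With few reads of the miR-29b 5p arms, small changes of these were not detectable at this depth.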
